A study of Mus musculus with 16 samples.

Results

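The genes described here are 37 members of the unfolded protein response and of the amino acid stress response, found by their symbols in the authors' table of estimated counts for 45706 genes. All 37 were found, and all 37 passed the filter on low counts in each of the 5 comparisons. By role they are 11 ER chaperones and co-chaperones, 4 protein disulfide isomerases, 6 genes of ER-associated degradation, 4 stress sensors, 3 transcription factors, 5 regulators that ATF4 or CHOP switch on, and 4 enzymes of amino acid and one-carbon metabolism. The study used bacTRAP, in which a GFP-tagged ribosomal protein L10a is made only where Cre recombinase has removed a stop cassette, and tagged ribosomes are then pulled from a tissue lysate with antibodies to GFP. Mice carried the ROSA-STOP-L10a-bactrap allele, and Cre was active in PNOC neurons, the hypothalamic cells that express prepronociceptin. The labels give the genotypes as "Control (Lepr-flox)" and "Pnoc Lepr deletion", the latter lacking the leptin receptor gene Lepr in Pnoc cells, and do not state the Cre status of the control animals. Both genotypes were C57Bl/6N mice on chow, random fed and sampled in the morning, aged 12 weeks by 1 protocol and 10 to 12 weeks by another. The hypothalami of 4 animals were combined in each of 8 pools, numbered 1 to 4 for control and 5 to 8 for Lepr deletion. Each pool gave an input library, from an aliquot of cleared and detergent-treated lysate, and a pulldown library, so that there were 16 libraries in 4 groups of 4.

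Proteins of the secretory pathway fold in the endoplasmic reticulum (ER), where chaperones such as BiP (gene Hspa5) hold unfolded chains and disulfide isomerases join their cysteines. When unfolded chains build up, the sensors IRE1 (Ern1), ATF6 and PERK (Eif2ak3) are activated. IRE1 splices Xbp1 mRNA, ATF6 is cut to release a transcription factor, and PERK phosphorylates the initiation factor eIF2, which lowers most translation while raising that of ATF4. Lack of amino acids reaches eIF2 and ATF4 through another kinase, GCN2 (Eif2ak4). ATF4 and its target CHOP (Ddit3) then switch on amino acid synthesis and feedback genes. Neurons that secrete peptides carry a steady folding load, and ER stress in the hypothalamus has been linked to a weaker response to leptin.

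Library totals were 64435888 to 78623579 estimated counts. Levels are counts scaled by TMM to a common library size (CPM), which sets the bulk of genes equal between libraries, and 3 counts correspond to 0.0469 to 0.0562 CPM in input and 0.0321 to 0.0395 CPM in pulldown, which covers counting error only. Mitochondrially encoded genes took 31.2% to 32.5% of counts in control input, 27.6% to 30% in Lepr-deletion input and 0.0819% to 0.112% in pulldown. All 5 pan-neuronal and all 3 GABAergic markers were higher in pulldown in both genotypes, Pnoc itself rose from 2.71 ± 0.196 to 8.78 ± 1.25 CPM in control (SD, n = 4), and all 7 astrocyte markers were lower. All tested markers of oligodendrocytes, their precursors, microglia, vascular cells, and tanycytes and ependyma were also lower in both genotypes. Of 4 hypothalamic markers, Sim1 was higher in pulldown, by 0.673 in control and 0.715 in Lepr deletion on the log2 scale. Pomc and Hcrt were lower and Agrp did not pass. Lepr totals, which cover all its isoforms, were 3.49 to 5.11 CPM in control input and 1.42 to 1.86 CPM in control pulldown. In Lepr deletion they were 4.78 to 8.14 CPM in input and 2.42 to 2.82 CPM in pulldown. Unlike Pnoc, Lepr was thus lower in pulldown in both genotypes, by -1.42 and -1.22 on the log2 scale. Between the pulldown groups it was higher in Lepr deletion, by 0.706. All 3 differences had an edgeR adjusted p under 0.05. The deleted part of the gene was not given, so these totals check nothing about the labels, and the groups are called by their labels. Pools 1 and 5 were most often at an end of their group. Among 13773 genes of at least 1 CPM, 17.1% were lowest and 20.1% highest in pool 1 in both its libraries, against 4.12% to 12.4% for each of the other control pools. For pool 5 the shares were 11.7% and 13.8%, against 5.29% to 9.16% for the other Lepr-deletion pools. Pool 4 came near pool 5, lowest for 10% and highest for 12.4%. In pulldown, pools 1 and 4 differed most in control and pools 5 and 8 in Lepr deletion (chi-square per degree of freedom against counting noise 47.5 and 49.9). Genotype results are given with and without pools 1 and 5.

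The promoters are shown first because some of these genes share a control element. RefSeq (GRCm38.p6) gave a window of 250 bases before to 50 after the start for 33 of the 37 genes, all but Derl1, Atf6, Hyou1 and Manf. The ER stress response element ERSE (CCAAT and CCACG with 9 bases of any kind between them, both strands searched) was in the windows of 8 of these 33 genes (24.2%). Over all genes with a window it was in 37 of 27025, or 39 of 32851 windows (0.119%). The 8 are the chaperones and co-chaperones Hspa5, Hsp90b1, Calr, Canx, Creld2 and Dnajc3, the isomerase Pdia6 and the ubiquitin ligase Syvn1. Each line below is a stretch of the gene's own strand with 20 bases on either side, and capitals mark the element, which starts with CGTGG and ends with ATTGG where it lies on the opposite strand.
Hspa5, chr2:34772005-34772063 (+): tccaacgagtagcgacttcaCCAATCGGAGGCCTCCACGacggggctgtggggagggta
Hsp90b1, chr10:86705618-86705676 (-): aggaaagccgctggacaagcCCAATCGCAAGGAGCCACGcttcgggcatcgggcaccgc
Hsp90b1, chr10:86705513-86705571 (-): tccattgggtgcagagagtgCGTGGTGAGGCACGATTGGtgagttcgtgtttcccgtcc
Calr, chr8:84847055-84847113 (-): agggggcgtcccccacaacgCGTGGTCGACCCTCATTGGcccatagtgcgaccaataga
Canx, chr11:50325780-50325838 (-): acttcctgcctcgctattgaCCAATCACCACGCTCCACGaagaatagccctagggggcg
Creld2, chr15:88819500-88819558 (+): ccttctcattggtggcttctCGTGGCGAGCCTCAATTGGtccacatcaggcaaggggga
Dnajc3, chr14:118937807-118937865 (+): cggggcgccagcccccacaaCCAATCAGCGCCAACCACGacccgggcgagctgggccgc
Pdia6, chr12:17266471-17266529 (+): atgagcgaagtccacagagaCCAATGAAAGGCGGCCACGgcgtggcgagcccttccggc
Syvn1, chr19:6046512-6046570 (+): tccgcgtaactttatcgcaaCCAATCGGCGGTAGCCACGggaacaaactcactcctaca
The Hspa5 element ended 47 bases before the start and the Syvn1 element 26 bases before it, while the more distant of the pair in Hsp90b1 began 212 bases before it.

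A related element, ERSE-II (ATTGG and CCACG with 1 base between them), was found in Dnajb11 and Herpud1, 6.06% of the 33 genes. Over all genes it was in 12 of 27025 (0.0365% of all windows). It shares CCACG with ERSE, and its ATTGG is the complement of CCAAT. The XBP1 element TGACGTGG was in none of the 33, against 193 of 27025 genes (0.676% of all windows). The composite element that ATF4 binds with a partner (TGATGNAA) was in Asns, Chac1, Herpud1 and Trib3, 12.1% of the 33. Over all genes it was in 1219 of 27025 (3.97% of all windows). Shown are the elements of asparagine synthetase (Asns), of the glutathione-degrading enzyme Chac1 and of Herpud1, an ER-membrane degradation factor that holds both kinds.
Herpud1 ERSE-II, chr8:94386357-94386407 (+): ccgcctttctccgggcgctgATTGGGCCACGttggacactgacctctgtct
Herpud1 ATF4 element, chr8:94386297-94386344 (+): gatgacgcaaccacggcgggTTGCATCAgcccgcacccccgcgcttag
Asns ATF4 element, chr6:7693210-7693252 (-): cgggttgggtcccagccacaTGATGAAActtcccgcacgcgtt
Chac1 ATF4 element, chr2:119351029-119351076 (+): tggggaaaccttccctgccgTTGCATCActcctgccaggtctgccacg
Such matches describe letters in these windows and show no binding. The members were chosen as genes of these stress responses, so their shares are no test of the elements.

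Per gene length, the chaperones led the module and the sensors stood near its end. In the deposited TPM values (which divide counts by transcript length and rescale each library to the same total), the median of the 4 control input libraries was 231 for Hsp90b1 (the ER form of HSP90), 139 for Hspa5, 133 for Canx (calnexin) and 84.5 for Calr (calreticulin). The same 4 genes led in control pulldown, with TPM medians of 453.2, 299.7, 271.1 and 165.0. Hspa5 and Canx were neighbours whose control input ranges overlapped, at 111 to 153 and 115 to 161 TPM. In pulldown, Atf4 (107 TPM), Pdia3 (98.4 TPM) and Asns (94.5 TPM) came next. The sensors Eif2ak3 (1.50 TPM in input, 2.76 in pulldown) and Ern1 (1.63 and 2.44 TPM) were among the lowest members. Trib3, a pseudokinase that CHOP and ATF4 induce, was the lowest in input at 0.108 TPM and in pulldown at 0.230 TPM. TPM values of the bulk of genes were also higher in pulldown than in input, so in this paragraph they give the order within a group only. Further on they serve as an alternative scaling and, for Ddit3, between the pulldown groups of the 2 genotypes.

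**Figure D1:**
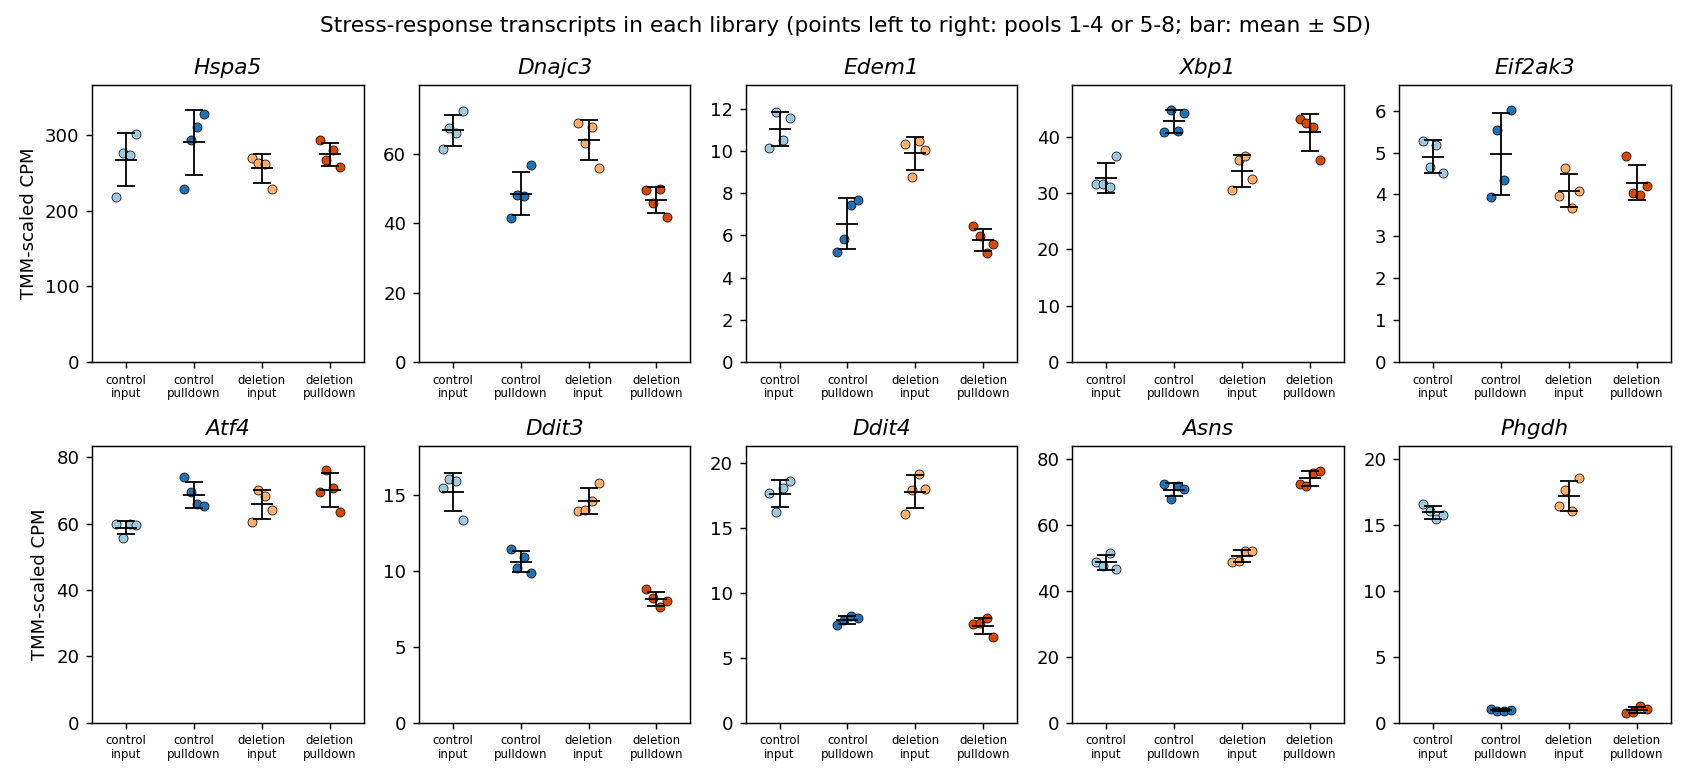
Levels of 10 stress-response genes in 16 libraries. The y axis of each panel is TMM-scaled CPM from 0, points are the pools of a group and bars the mean ± SD (n = 4); Ddit4 and Phgdh sit lower in both pulldown groups, Asns sits higher, and the Hspa5 groups overlap.

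The first comparison asked which of the genes are more or less abundant on the tagged ribosomes than in the whole lysate of control mice. In control mice the serine-synthesis enzymes Phgdh and Psat1 and the mTORC1 inhibitor Ddit4 differed most, all far lower in pulldown, and the degradation gene Edem1 came next. Chac1 and Asns had the highest positive fold changes. Among the folding genes, 8 of 11 chaperones and co-chaperones and all 4 isomerases did not pass the test in the fit without a pool block. A member passed when edgeR's quasi-likelihood test gave a p of 0.05 or less after Benjamini-Hochberg adjustment over all genes tested. By this rule 9 of 37 members were higher in pulldown and 10 lower, while 18 did not pass. Fold changes are given on the log2 scale with their standard error (SE). Over all 17570 genes tested, 64.8% passed, 30.1% higher and 34.6% lower. The groups did not overlap for 8 members that were higher and 7 that were lower, against 28.4% and 31.2% of all genes tested. The median log2 fold change of the members was 0.0473, against -0.0202 for all genes. In bulk libraries such as these, fewer cells of a type and less RNA per cell cannot be told apart. The choice of scaling matters for these calls. The median of all genes moved to 0.53 on the log2 scale when library totals were used in place of TMM, and to 0.75 with log2(TPM + 1). The number of members passing became 30 (27 higher, 3 lower), against 79.9% of genes, and 36 (33 higher, 3 lower), against 85.8%. Library totals include mitochondrially encoded counts, which took 31.2% to 32.5% of control input and 0.0819% to 0.112% of control pulldown. Their part in the shift of the median was not tested. With these genes removed and TMM kept, 19 members passed (9 higher, 10 lower), against 11444 of 17644 genes. The calls below are relative to the bulk of genes, and 12 of the 19 kept their direction under every scaling tried. Without pools 1 and 5 the count was 22 (11 higher, 11 lower), against 64.8% of genes.

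Of the 11 chaperones and co-chaperones, 2 were higher, 1 was lower and 8 did not pass, with a median of 0.0473. Hspa5, the master chaperone and brake on the sensors, measured 218, 277, 274 and 302 CPM in control input of pools 1 to 4 and 229, 294, 311 and 328 CPM in their pulldown. The ranges overlapped, with pool 1 lowest on both sides, and the log2 fold change was 0.10 ± 0.12 (SE; edgeR adjusted p = 0.467). With the pool as a block, Hspa5 was 0.10 higher with an adjusted p of 0.0123. Dnajc3, a BiP co-chaperone that also inhibits PERK, had 61.3, 67.4, 66.0 and 72.5 CPM in input and 41.5, 48.3, 47.8 and 56.7 CPM in pulldown. Every pulldown value lay below every input value. The log2 fold change was -0.48 ± 0.09 (SE; edgeR adjusted p = 0.00044), but it turned to 0.07 with library totals and 0.47 with log2(TPM + 1). Creld2, a redox-active chaperone, rose by 0.37 ± 0.08 (SE; edgeR adjusted p = 0.00153) and the secreted factor Manf by 0.24 ± 0.08 (SE; edgeR adjusted p = 0.0242), both higher under every scaling tried. Creld2 passed in 20 of 20 alternatives and Manf in 17. Manf missed the threshold with a mean of at least 1 CPM (0.18, adjusted p = 0.0756) and without the pulldown library of pool 3 (0.22, 0.0541) or of pool 4 (0.23, 0.0513).

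The 4 disulfide isomerases, which form and reshuffle disulfide bonds, all missed the threshold in edgeR's test (median 0.0895). Pdia4 had the largest difference, with 14.1, 21.3, 19.7 and 22.3 CPM in input and 14.01, 17.24, 16.84 and 20.65 CPM in pulldown. Its groups overlapped, with pool 1 again lowest in both, and the log2 fold change was -0.19 ± 0.14 (SE; edgeR adjusted p = 0.277). With the pool as a block Pdia4 (adjusted p = 0.0159), Pdia6 (0.0152), Canx (0.000697) and the degradation factor Sel1l (0.0413) also passed, at differences of -0.18, 0.14, -0.15 and 0.08, which brought the members called to 24, against 69.3% of genes.

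ER-associated degradation was split, with 2 of 6 genes higher, 2 lower and 2 not passing (median 0.084). Edem1, a mannosidase-like protein that directs misfolded glycoproteins to disposal, had 10.17, 11.83, 10.54 and 11.58 CPM in input. Its pulldown values were 5.23, 5.81, 7.43 and 7.70 CPM. The groups were clearly apart, with a log2 fold change of -0.77 ± 0.12 (SE; edgeR adjusted p = 0.000167), although log2(TPM + 1) gave 0.14. Derl2, a channel component, was lower at -0.40 with TMM scaling and higher at 0.53 with log2(TPM + 1). Its relative Derl1 rose by 0.34 ± 0.10 and Herpud1 by 0.28 ± 0.07 (SE; edgeR adjusted p = 0.00977 and 0.00468).

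Of the 4 sensors, Ern1 and Eif2ak4 were lower with TMM scaling and 2 did not pass (median -0.15). Ern1, the gene of IRE1, measured 7.24, 10.6, 8.97 and 8.55 CPM in input and 5.42, 6.74, 6.91 and 8.10 CPM in pulldown. The groups overlapped, because pulldown of pool 4 exceeded input of pool 1. The log2 fold change was -0.40 ± 0.14 (SE; edgeR adjusted p = 0.0229) and turned to 0.15 with library totals. It was called as lower in 12 of 20 alternatives. Without 1 library it missed the threshold 4 times, at -0.30 and -0.39 without the input of pool 2 or 3 (adjusted p = 0.0895 and 0.0569) and -0.29 and -0.39 without the pulldown of pool 1 or 2 (0.052 and 0.0543). Eif2ak3, the gene of PERK, had 5.28, 4.64, 5.19 and 4.51 CPM in input and 3.94, 5.54, 4.35 and 6.01 CPM in pulldown. These values interleaved, and the log2 fold change was -0.0013 ± 0.14 (SE; edgeR adjusted p = 0.994). Eif2ak4 was lower by TMM (-0.24 ± 0.07 SE; edgeR adjusted p = 0.00952) and higher by library totals at 0.31, and it missed the threshold with no filter (-0.16, adjusted p = 0.108).

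All 3 transcription factors passed, Xbp1 and Atf4 as higher and Ddit3 as lower with TMM scaling. Xbp1 measured 31.6, 31.7, 31.0 and 36.7 CPM in input and 41.0, 44.8, 41.1 and 44.3 CPM in pulldown, with no overlap. Its log2 fold change was 0.37 ± 0.06 (SE; edgeR adjusted p = 0.000299). The gene total counts spliced and unspliced Xbp1 mRNA together, so that IRE1 activity cannot be read from it.
Atf4 measured 60.0, 55.8, 60.0 and 59.5 CPM in input and 73.9, 69.6, 66.0 and 65.3 CPM in pulldown. The lowest pulldown value was above the highest input value, and the log2 fold change was 0.21 ± 0.05 (SE; edgeR adjusted p = 0.00292). Ddit3, the gene of CHOP (chr10:127290793-127296291), had 15.43, 16.05, 15.94 and 13.35 CPM in input and 11.4, 10.2, 10.9 and 9.89 CPM in pulldown. All pulldown values were lower, with a log2 fold change of -0.54 ± 0.08 (SE; edgeR adjusted p = 6.77e-05). This direction held only relative to the bulk of genes, as library totals gave 0.01 and log2(TPM + 1) gave 0.46. Ddit3 overlaps the ends of Mbd6 and Mars1 by up to 77 bases, and the counting's use of strand is not stated in the sources used here.

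Of the 5 regulators, 1 was higher, 2 were lower and 2 did not pass. Ddit4, which restrains mTORC1, measured 17.7, 16.2, 18.1 and 18.7 CPM in input and 7.49, 7.91, 8.20 and 8.10 CPM in pulldown. The groups lay far apart, with a log2 fold change of -1.17 ± 0.07 (SE; edgeR adjusted p = 2.87e-08) that stayed negative under every scaling tried. Ppp1r15a, the phosphatase subunit GADD34 that reverses eIF2 phosphorylation, was lower by TMM (-0.46), higher by library totals (0.09) and did not pass with the counts the authors rescaled from TPM (-0.02, adjusted p = 0.941). Chac1, named here after its values were seen, ranged from 5.08 to 6.78 CPM in input and from 8.92 to 9.34 CPM in pulldown. These ranges were separate, and its log2 fold change of 0.58 ± 0.09 (SE; edgeR adjusted p = 0.00017) was the highest of the members. Trib3 rested on 1 to 16 counts per control input library and 10 to 20 per control pulldown library and did not pass.

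All 4 enzymes passed, 2 in each direction. Phgdh, which diverts a glycolytic intermediate into serine synthesis, measured 16.55, 16.01, 15.4 and 15.72 CPM in control input. In pulldown it measured 1.02, 0.908, 0.897 and 0.989 CPM. The log2 fold change was -4.08 ± 0.08 (SE; edgeR adjusted p = 3.36e-12), the lowest of the members. Psat1, the next enzyme of that route, ranged from 68.3 to 79.2 CPM in input and from 20.2 to 21.7 CPM in pulldown. The 7 astrocyte markers moved the same way, from a sum of 2435 to 2773 CPM in input to 134.6 to 153.6 CPM in pulldown with none at 0. Markers of other cell types fell as well. Their median log2 fold changes were -3.48 for oligodendrocytes, -4.63 for their precursors, -4.75 for microglia, -3.6 for vascular cells and -2.88 for tanycytes and ependyma, against -4.61 for astrocytes. The part of any of these cell types in the result for Phgdh and Psat1 was not tested. Asns, which makes asparagine, went the other way, with 48.6, 47.6, 51.6 and 46.6 CPM in input and 72.3, 67.9, 71.6 and 70.7 CPM in pulldown. Its groups did not overlap, with a log2 fold change of 0.52 ± 0.04 (SE; edgeR adjusted p = 1.09e-06), and Mthfd2, a mitochondrial folate enzyme, was 0.40 ± 0.09 higher (SE; edgeR adjusted p = 0.00165). Psat1 and Asns are given beyond the gene of largest change and were chosen after their values were seen.

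Among 95 other genes of these pathways, 93 could be tested in this comparison (not Gdf15 and Fgf21), of which 25 were higher and 29 lower. The smallest p-values belonged to genes that were lower. They were the cystine transporter Slc7a11 (-4.47), the oxidative stress factor Nfe2l2 (-3.21), the glycine transporter Slc6a9 (-2.13) and the alanine aminotransferase Gpt2 (-1.32), with edgeR adjusted p of 4.43e-11 to 2.47e-08.

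**Figure D2:**
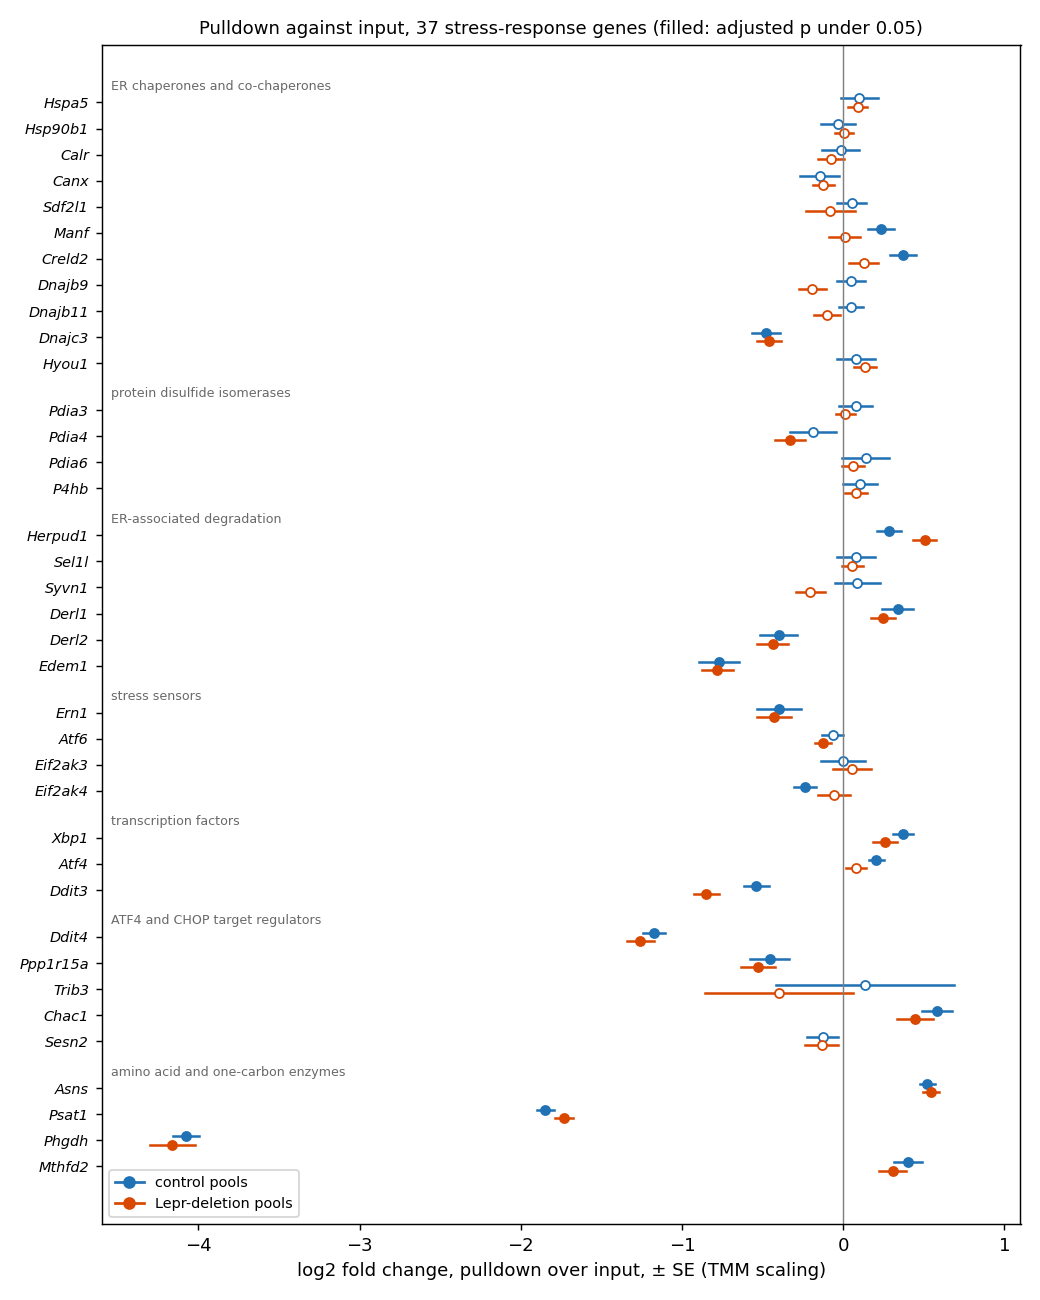
Pulldown against input for the 37 genes, by role. The x axis is the log2 fold change and bars are 1 SE, filled points have an edgeR adjusted p under 0.05, and control (blue) and Lepr deletion (orange) are fitted separately; Phgdh at -4.08 and -4.16 lies farthest left in both genotypes.

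In Lepr-deletion mice the same question gave 6 members higher in pulldown, 11 lower and 20 not passing, against 61.6% of 17423 genes that passed (28.8% higher, 32.8% lower). The members' median was -0.0736, against -0.0149 for all genes. Serine-synthesis enzymes and Ddit4 were again far lower, and Asns, Herpud1 and Chac1 led the genes that were higher. In both genotypes 6 members passed as higher and 9 as lower. The share of all genes passing in both was not computed, so these counts are not read as a trait of the members. Library totals brought the count to 31 (26 higher, 5 lower), against 77.1% of genes, and log2(TPM + 1) to 33 (30 higher, 3 lower), against 84.3%, with 9 of the 17 directions kept under every scaling tried. Without pools 1 and 5 the count was 19 (7 higher, 12 lower), against 59.7% of genes. The groups did not overlap for 5 members that were higher and 11 that were lower, against 26.6% and 29.8% of all genes tested.

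Among the folding genes, 1 of 11 chaperones (Dnajc3) and 1 of 4 isomerases (Pdia4) passed, both lower with TMM scaling and higher with log2(TPM + 1) at 0.42 and 0.53. Hspa5 measured 270.5, 263.3, 262.1 and 228.6 CPM in input of pools 5 to 8 and 293, 267, 281 and 258 CPM in pulldown. The ranges overlapped, and the log2 fold change was 0.09 ± 0.06 (SE; edgeR adjusted p = 0.204). Dnajc3 fell from 68.9, 63.1, 67.8 and 56.1 CPM to 49.55, 45.74, 50.02 and 41.87 CPM, without overlap (-0.46 ± 0.07 SE; edgeR adjusted p = 0.000114). Pdia4 had 18.7, 19.3, 19.1 and 17.6 CPM in input and 16.8, 14.4, 16.5 and 12.3 CPM in pulldown, again without overlap (-0.33 ± 0.09 SE; edgeR adjusted p = 0.007). With the pool as a block the count rose to 21, against 63.4% of genes. The additions were Canx (-0.13, adjusted p = 0.0245), Dnajb9 (-0.20, 0.0325), Hyou1 (0.13, 0.035) and Syvn1 (-0.20, 0.0372).

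For degradation, Herpud1 was higher by 0.51 ± 0.07 and Derl1 by 0.25 ± 0.07 (SE; edgeR adjusted p = 3.87e-05 and 0.0103). Edem1 measured 10.32, 8.75, 10.48 and 10.03 CPM in input and 6.43, 5.96, 5.19 and 5.60 CPM in pulldown. Every pulldown value was lower (-0.78 ± 0.10 SE; edgeR adjusted p = 9.55e-06), while log2(TPM + 1) gave 0.08. Derl2 was -0.44 with TMM and 0.30 with log2(TPM + 1).

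Of the sensors, Ern1 and Atf6 passed as lower with TMM scaling and were higher with library totals (0.02 and 0.33). Ern1 had 7.91, 7.96, 8.01 and 10.2 CPM in input and 6.73, 6.07, 5.78 and 6.92 CPM in pulldown, so the groups did not overlap (-0.43 ± 0.11 SE; edgeR adjusted p = 0.0032). The Atf6 call was marginal (-0.12 ± 0.05 SE; edgeR adjusted p = 0.0464) and held in 3 of 20 alternatives. Eif2ak3 had 3.97, 4.63, 3.67 and 4.08 CPM in input and 4.91, 4.05, 3.98 and 4.19 CPM in pulldown. Its groups overlapped and it did not pass (0.06 ± 0.12 SE; edgeR adjusted p = 0.698).

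Xbp1 measured 30.6, 36.0, 36.6 and 32.5 CPM in input and 43.2, 42.5, 41.7 and 36.0 CPM in pulldown. The lowest pulldown value, of pool 8, fell within the input range, and the log2 fold change was 0.26 ± 0.07 (SE; edgeR adjusted p = 0.00779). Atf4 had 60.4, 70.3, 68.4 and 64.3 CPM in input and 69.7, 76.3, 70.8 and 63.6 CPM in pulldown, overlapping and not passing (0.08 ± 0.06 SE; edgeR adjusted p = 0.295). Ddit3 measured 13.91, 14.02, 14.58 and 15.8 CPM in input and 8.77, 8.18, 7.61 and 8.02 CPM in pulldown. The groups were far apart with TMM scaling (-0.85 ± 0.08 SE; edgeR adjusted p = 4.91e-07), and log2(TPM + 1) gave 0.08.

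Ddit4 measured 16.11, 17.94, 19.15 and 18.05 CPM in input and 7.60, 7.65, 8.08 and 6.62 CPM in pulldown (-1.26 ± 0.08 SE; edgeR adjusted p = 2.25e-08). Phgdh measured 16.44, 17.63, 15.999 and 18.53 CPM in input and 0.733, 0.844, 1.27 and 1.02 CPM in pulldown (-4.16 ± 0.14 SE; edgeR adjusted p = 2.23e-11). Neither gene's groups came near each other. Asns was higher in every pool, from 48.7, 49.0, 52.1 and 51.9 CPM to 72.4, 71.9, 75.7 and 76.2 CPM (0.54 ± 0.05 SE; edgeR adjusted p = 3.97e-07). The astrocyte markers summed to 2124 to 2360 CPM in this input and 134.7 to 164.8 CPM in this pulldown, with none at 0. The tested markers of the other glial, vascular and ependymal types were lower in this pulldown too. Of the other pathway genes, 28 were higher and 31 lower of 93 tested. Slc7a11 (-4.12), Nfe2l2 (-3.17), Slc6a9 (-2.09) and Gpt2 (-1.36) again had the smallest p-values, with edgeR adjusted p of 4.69e-11 to 5.5e-10.

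The pulldown libraries of the 2 genotypes address which messages on the tagged ribosomes differ when Lepr is deleted. With all 8 libraries, no member passed edgeR's test, where 0.641% of 16859 genes passed (0.391% higher, 0.249% lower). At an unadjusted p under 0.05 there were 7 members (18.9%, against 19.8% of all genes), DESeq2 called 2 (Ddit3 and Dnajb9, against 6.32% of all genes), and limma on log2(TPM + 1) called 0. Of the 37, 29 had a negative log2 fold change, with a median of -0.11 against -0.0102 for all genes. Below 0 were 20 of 21 chaperones, isomerases and degradation genes, 3 of 4 sensors, 2 of 3 transcription factors and 4 of 5 regulators, among them Trib3 (-0.53) and Ddit3 with the lowest values, while all 4 enzymes were above 0 (median 0.0792). Class medians were -0.169 for chaperones, -0.128 for isomerases, -0.145 for degradation and -0.117 for sensors. The 2 groups did not overlap for 2 members, Ddit3 and Atf6, both lower, against 4.92% of all genes for lower and 5.1% for higher.

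Ddit3 had the smallest p of the members. Its level was 11.4, 10.2, 10.9 and 9.89 CPM in control pulldown and 8.77, 8.18, 7.61 and 8.02 CPM in Lepr-deletion pulldown. Every Lepr-deletion pool lay below every control pool, by TPM as well (28.0 to 31.2 against 35.7 to 38.6). The log2 fold change was -0.37 ± 0.07 (SE; 95% interval -0.53 to -0.21), with an unadjusted p of 0.000343 and an edgeR adjusted p of 0.052, just outside the threshold. It passed in 9 of 19 alternatives, with fold changes of -0.415 to -0.326 and adjusted p of 0.00076 to 0.205. It was the 1 member called with library totals (0.451% of all genes called), no filter (0.979%), a mean of at least 1 CPM (0.735%) and removal of mitochondrially encoded genes (0.647%), and it was called together with Dnajb9 in the fit of all 16 libraries (2.74%). The authors' deposited table gives Ddit3 a log2 fold change of -0.36 and an adjusted p of 0.000925, in a table where 7.52% of genes are under 0.05 in this comparison.

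Dnajb9, a J-domain co-chaperone that returns IRE1 to its BiP-bound state, came next. It measured 16.5, 19.3, 18.9 and 20.4 CPM in control pulldown and 17.1, 14.5, 14.4 and 12.7 CPM in Lepr-deletion pulldown. The groups overlapped only through the pool 1 and pool 5 libraries. The log2 fold change was -0.34 ± 0.09 (SE; edgeR adjusted p = 0.0964), and it passed in 5 of 19 alternatives, with -0.484 to -0.295 and adjusted p of 0.000847 to 0.277. The authors' deposited table gives -0.34 with an adjusted p of 0.0155. Atf6 ranged from 32.2 to 38.2 CPM in control and from 30.9 to 31.9 CPM in Lepr deletion (-0.15 ± 0.07 SE; edgeR adjusted p = 0.232), so its groups were separate but close. Dnajb9 and Atf6 were named after their values were seen.

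Hspa5 and the other factors and sensors given by library did not pass between genotypes in pulldown. Hspa5 differed by -0.07 (95% interval -0.28 to 0.14), Xbp1 by -0.06 (-0.20 to 0.08), Atf4 by 0.04 (-0.09 to 0.17), Ern1 by -0.08 (-0.34 to 0.18) and Eif2ak3 by -0.20 (-0.51 to 0.10). Their values in the 4 pools of each genotype, given above, overlapped. Dnajc3, Pdia4, Edem1, Ddit4 and Phgdh also overlapped and did not pass. For 36 members, all but Trib3, the 95% intervals stayed between -0.55 and 0.45 on the log2 scale, so that a change of 1 on that scale in either direction lies outside them. Trib3, with 7 to 20 counts per pulldown library, had an interval of -1.36 to 0.31.

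**Figure D3:**
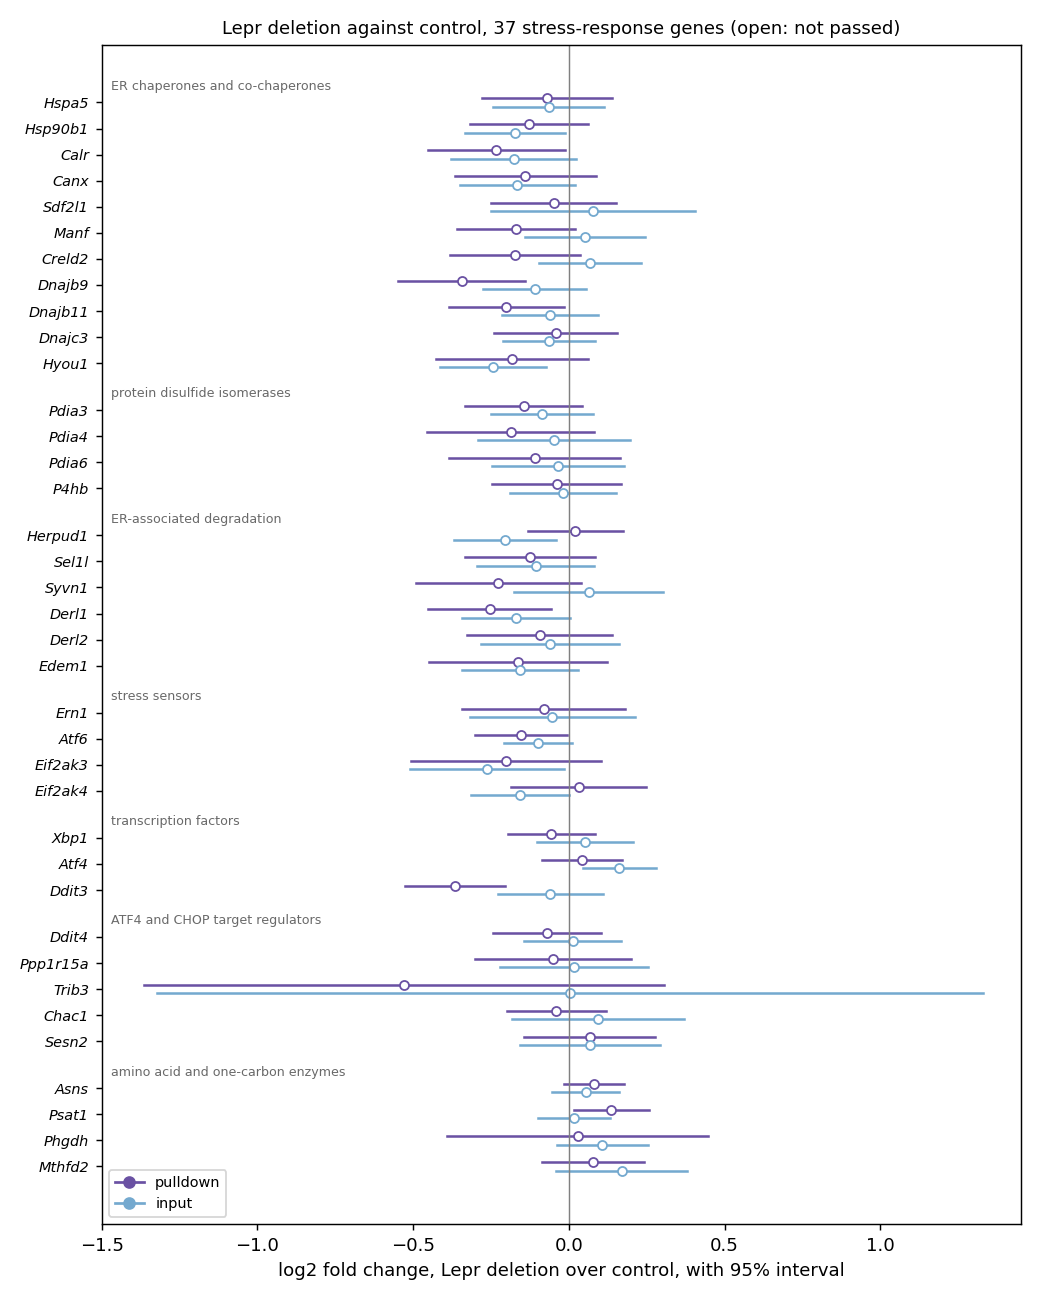
Lepr deletion against control for the 37 genes, in pulldown (purple) and input (light blue). The x axis is the log2 fold change with its 95% interval, open points did not pass at an adjusted p of 0.05; most ER genes lie left of 0 in pulldown, Ddit3 at -0.37 and Dnajb9 at -0.34 farthest among well-counted genes.

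The number of members passing in this comparison rose when pools 1 and 5 were left out. Without pools 1 and 5, 16 members passed, all lower in Lepr-deletion pulldown, against 19.9% of 16918 genes (10.5% lower, 9.35% higher). The 16 were the chaperones Hspa5, Hsp90b1, Calr, Canx, Hyou1, Manf, Dnajb9 and Dnajb11, the isomerases Pdia3, Pdia4 and Pdia6, the degradation genes Sel1l, Syvn1 and Derl1, the sensor Atf6 and the factor Ddit3. Dnajb9 had a log2 fold change of -0.48 ± 0.07 (SE; edgeR adjusted p = 0.000847), Derl1 -0.40 ± 0.06 (0.000687), Calr -0.38 ± 0.07 (0.00396) and Hspa5 -0.20 ± 0.05 (0.0142). The members' median was -0.224, against 0.001 for all genes. No regulator and no enzyme passed in this setting.
Leaving out only the control pulldown library of pool 1 gave 5 (Dnajb9, Hsp90b1, Derl1, Syvn1 and Ddit3, against 3.26% of all genes). Leaving out only the Lepr-deletion pulldown library of pool 5 gave 4 (Dnajb11, Dnajb9, Derl1 and Ddit3, against 7.37%). Leaving out any other pulldown library gave 0. The removal of pools 1 and 5 was chosen with an earlier result of these data known. Pool 1 was the lowest control pool in both its libraries for 18 of the 21 chaperone, isomerase and degradation genes. Pool 5 was the highest Lepr-deletion pool in both for 11 of them. Leaving out the lowest control pool and the highest Lepr-deletion pool lowers a fold change by construction. Passes in this setting are therefore no separate evidence of a genotype difference. Pools 4 and 8 lay at the other ends. Pool 4 was the highest control pool in both its libraries for 15 of the 21 genes, and pool 8 the lowest Lepr-deletion pool for 10. The members' median was -0.058 without the control pulldown library of pool 4 and -0.108 without the Lepr-deletion pulldown library of pool 8, against -0.11 with all. Leaving out pools 4 and 8 together was not tested.

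Of the 93 other pathway genes tested, 1 was higher, the GCN2 inhibitor Impact (0.22 ± 0.04 SE; edgeR adjusted p = 0.0494), and 1 lower, Vimp, an ER membrane selenoprotein of the degradation machinery (-0.45 ± 0.08 SE; edgeR adjusted p = 0.0386). The next smallest p-values were those of the translocation factor Sec63 (-0.17, adjusted p = 0.0931) and of Cnpy2 (-0.30, adjusted p = 0.104). Of the 21 other ER folding and translocation genes, 19 were negative (median -0.13), and of the 12 aminoacyl-tRNA synthetases 9 were positive (median 0.0898).

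In input, which holds RNA of the whole hypothalamic lysate, no member passed between genotypes by edgeR, where 0.231% of 17735 genes passed (0.135% higher, 0.0959% lower). DESeq2 and limma on log2(TPM + 1) called 0 members, and 5 (13.5%) had an unadjusted p under 0.05 in edgeR, against 14.0% of all genes. The 5 were Hyou1 (-0.24 ± 0.08 SE; edgeR adjusted p = 0.216), Atf4 (0.16 ± 0.05; 0.226), Herpud1 (-0.21 ± 0.08; 0.262), Hsp90b1 (-0.17 ± 0.07; 0.322) and Eif2ak3 (-0.26 ± 0.12; 0.326). The members' median was -0.0527, against -0.00248 for all genes. The sign count was not stable to scaling, with 22 negative by TMM, 13 by library totals and 12 by limma on log2(TPM + 1). The groups did not overlap for Atf4, which was higher (4.05% of all genes), and Eif2ak4, which was lower (2.82%). Ddit3 differed by -0.06 ± 0.08 (SE; edgeR adjusted p = 0.787) with overlapping values. For the 36 members other than Trib3 the 95% intervals lay between -0.51 and 0.41.

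Without pools 1 and 5, 9 members passed in input against 11.0% of 17838 genes (6.67% lower, 4.3% higher). Calr, Hsp90b1, Canx, Hyou1, Pdia3, Sel1l, Derl1 and Herpud1 were lower, with log2 fold changes from -0.36 (Hyou1) to -0.21 (Pdia3), and Atf4 was higher at 0.21. Leaving out only the control input library of pool 1 gave 4 (Calr, Hsp90b1, Canx and Hyou1, against 2.23%). No other single library changed the count of 0. The members' median was 0.0193 without the control input library of pool 4 and -0.0164 without the Lepr-deletion input library of pool 8. As in pulldown, leaving out pools 1 and 5 lowers by construction the fold change of a gene lowest in pool 1 and highest in pool 5. Among the other pathway genes 0 of 93 passed by edgeR, 16 at an unadjusted p under 0.05, 2 by DESeq2 and 0 by limma. The smallest p-values were those of the ER membrane protein Serp1 (0.24, adjusted p = 0.0776), the ER lectin Erlec1 (-0.37, 0.0908), Slc7a11 (0.21, 0.227) and the seryl-tRNA synthetase Sars (0.13, 0.227).

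Whether pulldown enrichment itself changed with the deletion was tested as a difference of differences over all 16 libraries, without pairing the libraries of a pool. No member passed by edgeR, DESeq2 or limma, where 0.0108% of 18530 genes passed by edgeR (0.0054% in each direction), and 2 members (5.41%) had an unadjusted p under 0.05, against 8.96% of all genes. Ddit3 had a difference in enrichment of -0.32 ± 0.11 (SE; unadjusted p = 0.00696, edgeR adjusted p = 0.427), and Herpud1 had one of 0.21 ± 0.10 (unadjusted p = 0.0436, edgeR adjusted p = 0.542). The members' median was -0.0711, against -0.0149 for all genes. With the pool as a block, 0 members passed as well, against 4 of 18530 genes. Genotype differences in pulldown are therefore not shown to differ from those in input for any member. Of the other pathway genes 0 passed by these tools and 4 had an unadjusted p under 0.05, Serp1 (-0.28), Sec63 (-0.19), Vimp (-0.35) and Atf3 (-0.77).

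The variation within groups had a pattern of its own. In 36 members with a mean of at least 1 CPM, each library's deviation from its group mean was taken on the log2 scale. Input and pulldown of a pool come from 1 lysate, so agreement between them describes the pool and is no separate evidence. Pool 1 was the lowest of the 4 control pools in both input and pulldown for 21 of 36 members (58.3%), against 17.1% of 13773 genes, and 18 of these 21 were ER folding and degradation genes. Pool 4 was the highest in both for 16 members (44.4%, against 12.4%), 15 of them ER genes. In Lepr deletion, pool 5 was highest in both for 12 (33.3%, against 13.8%) and pool 8 lowest in both for 10 (27.8%, against 9.08%).

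The roles differed in how often this was so. In pool 1 all 4 isomerases, all 6 degradation genes, 8 of 11 chaperones, 2 of 4 sensors and 1 of 4 regulators were lowest on both sides, and 0 of 3 transcription factors and 0 of 4 enzymes. Median deviations of pool 1 in input and pulldown were -0.226 and -0.218 for chaperones, -0.322 and -0.282 for isomerases and -0.247 and -0.256 for degradation genes. For the sensors they were -0.0182 and -0.221, and for the regulators -0.0895 and -0.0812. For the transcription factors they were 0.0262 and 0.107, for the enzymes 0.0719 and 0.0662, and for all genes 0.00722 and 0.0255. Pdia6, named after its values were seen, measured 23.8 CPM in input of pool 1 against 32.1 to 35.5 in the other control pools, and 25.7 CPM against 36.1 to 41.0 in pulldown. The 19 other ER folding and translocation genes had medians of -0.236 and -0.187, the 8 amino acid transport genes -0.179 and -0.239, the 11 other sensors and regulators -0.138 and -0.230, and the 12 other degradation genes -0.0877 and -0.134. They were 0.0277 and -0.0414 for the 12 aminoacyl-tRNA synthetases, 0.0445 and 0.0025 for 13 factors of the eIF2 response and 0.0577 and -0.0259 for 9 genes of amino acid and one-carbon synthesis. No test compared the roles.

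The genes whose ERSE is shown above deviated together. The 8 genes with ERSE had a median deviation in pool 1 of -0.279 in input and -0.306 in pulldown, and all 8 were negative in both. In pool 4 their medians were 0.176 and 0.176, with none negative. The 24 members with a window, a mean of at least 1 CPM and no ERSE had medians of -0.0873 and -0.0944 in pool 1, with 14 and 18 negative. They include Dnajb11 and Herpud1, which hold ERSE-II, and the enzymes and transcription factors, whose pool 1 medians were above 0. Among isomerases ERSE was found only in Pdia6, and among degradation genes only in Syvn1. The 8 genes with ERSE share roles as well as the element, and the part of either was not tested. The labels give no handling date or batch for the pools.

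**Figure D4:**
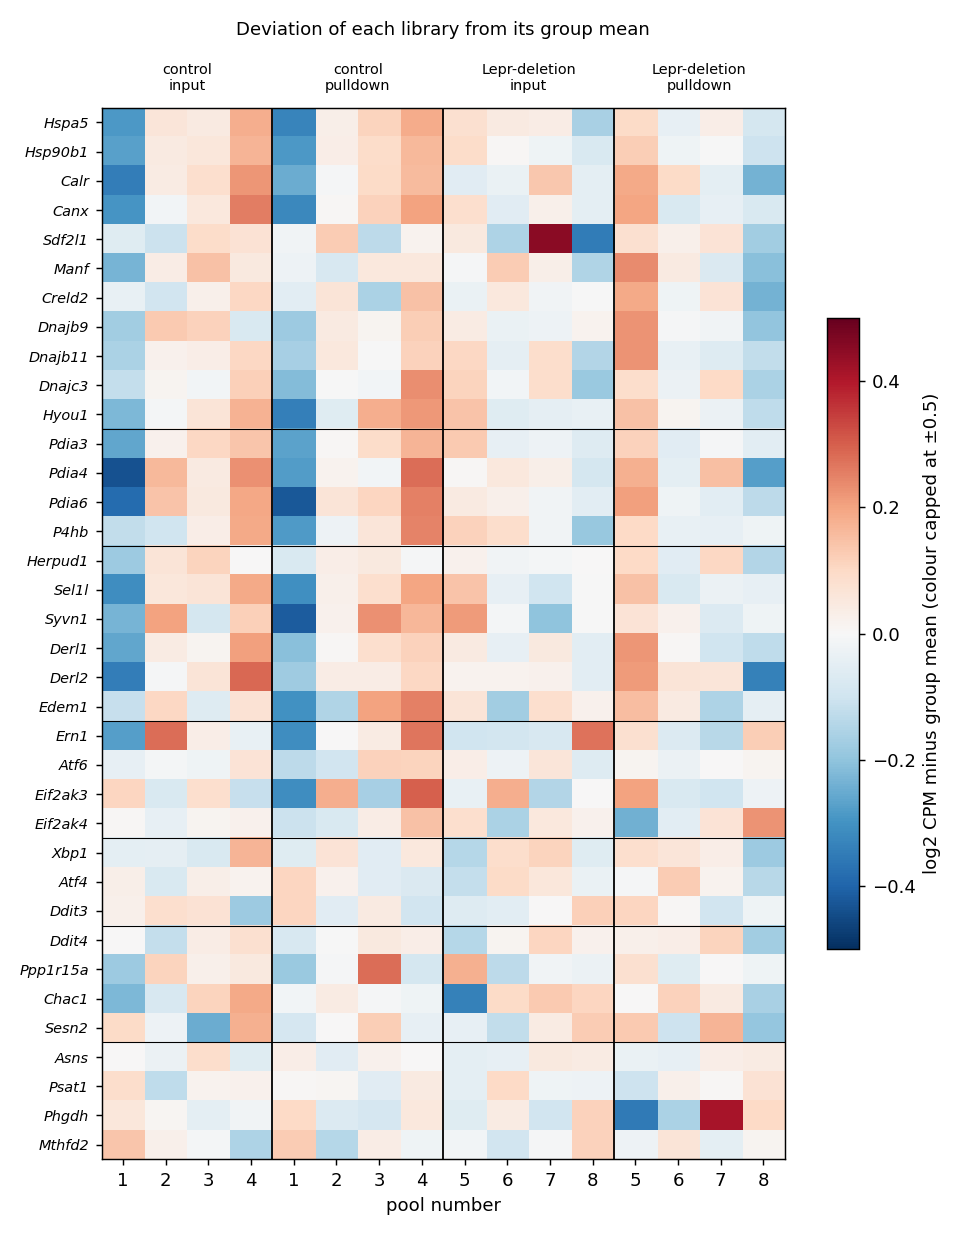
Deviation of each library from its group mean for 36 members. Columns are libraries by group and pool, rows are genes by role, and colour is log2 CPM minus the group mean, capped at 0.5 in either direction; the ER classes are low in both pool 1 libraries and high in both pool 4 libraries, and the enzymes are not.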

How the data were processed

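Salmon 1.10.1, DESeq2 1.38.3 and build GRCm38 are named per the submitters' processing notes. Trimming, annotation release and use of strand are not stated in the sources used here. Values deposited by the authors were estimated counts, not always whole, and TPM, both by gene. A further table deposited by the authors holds log2 fold changes with adjusted p-values, and its model is not stated in the sources used here.

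Members and gene lists were chosen with earlier results of these data known. Estimated counts were rounded and tested in R 4.3.3 with edgeR 4.0.16 (quasi-likelihood, TMM, two-sided, Benjamini-Hochberg at 0.05) after filterByExpr (10 counts at least, 15 in total). Comparisons of 2 groups used their 8 libraries, and the change of enrichment used all 16. Alternatives were RLE factors, library totals, no filter, a mean of at least 1 CPM, DESeq2 1.42.0, counts the authors rescaled from TPM, limma 3.58.1 on log2(TPM + 1) or log2(TPM + 0.1), all 16 libraries in 1 fit, no mitochondrially encoded genes, a pool block, each library left out, and no pools 1 and 5. For the change of enrichment, each pool with both its libraries was left out in place of each library. The limma fits on TPM used the genes kept by the same filter. The test was checked on simulated counts, drawn independently for each library with a common dispersion and no differences between pools. That check therefore does not cover the pool differences seen here.

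Input and pulldown of a number share a lysate per the labels' protocols, so pool numbers pair them. Over 13773 genes their deviations correlated at 0.018 to 0.35, over 0.1 in 4 of 8 pools, and the own number matched best in 6 of 8. Libraries of a group differed by more than counting noise (chi-square per degree of freedom 8.16 to 49.9 over 24 pairs). A pool holds 4 animals, so p-values measure the spread between pools.

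Values in every library are given for Hspa5, Xbp1, Atf4, Ddit3, Eif2ak3 and the member of each role with the largest control enrichment change, and up to 4 other pathway genes per comparison by smallest p. Members given with library values beyond this rule are said to be so. Several members overlap a neighbouring gene in GRCm38.p6, as Hspa5 with Rabepk (1921 bases) and Ppp1r15a with Tulp2 (730 bases), and are uncertain to that extent.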

Additional observations from a re-analysis of the deposited data

Results flagged for a closer look

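In 9 of 148 sets of 4 libraries, 1 library stood apart from the other 3 by Dixon's test at the 95% level, where chance gives about 1 in 20. Most were in the Lepr-deletion libraries. In Lepr-deletion input, Calr was 90.63 CPM in 1 pool against 79.45 to 80.76 in the others. Hyou1, a large ER chaperone, was 34.34 CPM against 29.82 to 30.26. Derl2 was 19.05 CPM against 19.97 to 20.03. Ern1 was 10.25 CPM against 7.908 to 8.008. Chac1 was 4.998 CPM against 6.752 to 6.924. In Lepr-deletion pulldown, Canx was 322.1 CPM against 266.5 to 273.3 and the isomerase P4hb 43.61 CPM against 39.51 to 40.13. In control input, Xbp1 was 36.7 CPM against 31.02 to 31.66 and Atf4 55.8 CPM against 59.54 to 59.98.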

How the results depend on the processing

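Counts of members called between pulldown and input rested on the scaling. In control they were 30 with library totals and 36 with limma on log2(TPM + 1) and on log2(TPM + 0.1). In Lepr deletion they were 31, 33 and 33. The medians of all genes under these settings were 0.527, 0.752 and 0.935 in control and 0.44, 0.702 and 0.861 in Lepr deletion. Signs that reversed follow, in the order library totals, log2(TPM + 1), log2(TPM + 0.1), with 2 values where library totals kept the sign. In control these were Dnajc3 (0.07, 0.47, 0.49), Derl2 (0.15, 0.53, 0.56), Edem1 (0.14, 0.18), Ern1 (0.15, 0.38, 0.54), Ddit3 (0.01, 0.46, 0.47), Eif2ak4 (0.31, 0.62, 0.74) and Ppp1r15a (0.09, 0.69, 0.84). In Lepr deletion they were Pdia4 (0.13, 0.53, 0.56), Dnajc3 (0.42, 0.44), Derl2 (0.02, 0.30, 0.32), Edem1 (0.08, 0.11), Ern1 (0.02, 0.29, 0.41), Atf6 (0.33, 0.69, 0.76), Ddit3 (0.08, 0.09) and Ppp1r15a (0.23, 0.28). With the replicate block, which pairs the libraries of a pool, the counts were 24 in control, 21 in Lepr deletion and 0 for the change of enrichment, and no other call changed. Genotype comparisons share no pool between groups, so no block could be fitted there. Leaving out single libraries gave 18 to 20 in control and 16 to 19 in Lepr deletion. For the change of enrichment both libraries of a pool were left out at a time, which gave 0.

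Between genotypes in pulldown, where edgeR gave 0, library totals, no filter, a mean of at least 1 CPM and removal of mitochondrially encoded genes each gave 1 (0.451%, 0.979%, 0.735% and 0.647% of all genes). DESeq2 and the fit of all 16 libraries each gave 2 (6.32% and 2.74%), leaving out single libraries gave 0 to 5, and leaving out pools 1 and 5 gave 16. In input, leaving out single libraries gave 0 to 4 and leaving out pools 1 and 5 gave 9. The cause of these changes was not tested. Depth limits Trib3 alone, at 1 to 20 counts per library. With 4 pools a group, the median half-width of the 95% interval of a member was 0.208 in pulldown and 0.174 in input between genotypes.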
